A study of Homo sapiens with 15 samples.

Results

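Interferon-stimulated genes are the genes that a cell switches on after an interferon has bound its receptor. The 41 genes described here are a list of well-known members of that response, chosen with earlier results of these data known. A row of the count tables was taken as a member when its Ensembl gene ID mapped to 1 of the 41 symbols, which gave 41 of the 62700 rows in each table. Enough reads for a test were found for 34 of the 41 in both tables, and the other 7 are given at the end by their counts.

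All RNA came from 143B, an established human osteosarcoma cell line, so 1 line stands for the tumor. The 5 conditions had 3 libraries each. Non-OSCs were unmodified 143B cells grown attached to the dish in serum. Osteosarcoma stem cells (OSCs) were unmodified 143B cells grown as floating spheres in serum-free tumorsphere medium with B27, EGF and basic FGF, so sphere culture and the OSC state cannot be told apart in these data. The shCtrl, shPDK1#1 and shPDK1#2 libraries were also from 143B spheres, after lentiviral delivery of a control vector or of 1 of 2 short hairpins against PDK1, the kinase that holds pyruvate dehydrogenase inactive. The study asked how PDK1 acts on the stemness of these cells.

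In the textbook pathway, RNA or DNA in the cytosol is detected by sensors such as RIG-I, MDA5 and cGAS, whose adaptors MAVS and STING lead to the phosphorylation of IRF3 and IRF7 and to the transcription of interferon genes. Secreted type I interferon binds IFNAR on the same or a neighbouring cell, the kinases JAK1 and TYK2 phosphorylate STAT proteins such as STAT2, which join IRF9 in the factor ISGF3. ISGF3 binds the interferon-stimulated response element (ISRE) in the promoters of the target genes. Many of the targets are antiviral proteins, and several, among them RIGI, IRF7, STAT2 and IRF9, are parts of the pathway itself. Some tumor cells keep a low level of the response without added interferon.

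The ISRE is what most of these promoters have in common, so stretches that hold it are shown for some of the called genes, picked because they hold it. Other called genes are not shown, among them OASL and IFIT2, which had no promoter sequence to search, and RIGI, which had no match. The promoter sequences are RefSeq's, on GRCh38.p14, from 250 bases before to 50 after the transcription start, and 34 of the 41 genes had an entry. They were searched on both strands for the ISRE core GAAANNGAAA, which reads TTTCNNTTTC on the other strand. The first 6 stretches belong to genes that were lower with shPDK1#2, the next to the single gene that was higher with it, and the last pair to a gene higher and a gene lower in OSCs. Each is written along its gene's strand with 20 bases on either side of the outermost matches, cut at the transcription start, and the matches are in capitals. For OAS3 the stretch shown holds the first of its 2 matches, and the other begins at position -12 from the transcription start.
IFIT1, chr10:89392487-89392549, plus strand: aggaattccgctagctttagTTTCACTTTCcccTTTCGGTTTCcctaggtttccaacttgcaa
IFIT3, chr10:89327821-89327904, plus strand: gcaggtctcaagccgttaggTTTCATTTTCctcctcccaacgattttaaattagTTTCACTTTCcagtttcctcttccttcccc
ISG15, chr1:1013364-1013419, plus strand: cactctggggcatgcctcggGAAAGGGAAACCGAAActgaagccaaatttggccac
HERC5, chr4:88456974-88457074, plus strand: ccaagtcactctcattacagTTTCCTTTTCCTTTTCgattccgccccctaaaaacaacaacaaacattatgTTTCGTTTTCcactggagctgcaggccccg
IFI44, chr1:78649751-78649800, plus strand: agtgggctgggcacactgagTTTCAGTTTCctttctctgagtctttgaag
OAS3, chr12:112938311-112938360, plus strand: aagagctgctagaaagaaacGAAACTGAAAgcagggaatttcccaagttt
IFITM3, chr11:320866-320932, minus strand: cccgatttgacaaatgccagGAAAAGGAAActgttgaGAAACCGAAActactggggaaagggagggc
ISG20, chr15:88638927-88638976, plus strand: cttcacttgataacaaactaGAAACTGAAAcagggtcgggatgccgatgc
SAMD9, chr7:93118086-93118135, minus strand: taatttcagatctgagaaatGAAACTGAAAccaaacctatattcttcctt

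At least 1 ISRE core lay in the promoter of 24 of the 34 members with an entry (70.6%), against 4.38% of the 27305 genes in the same table. In ISG15 a pair of matches overlapped, so that the run reads GAAAGGGAAACCGAAA. The core of the gamma-activated sequence, TTCNNNGAA, another element of interferon target genes, was found in 10 of the 34 (29.4%), against 9.38% of the genes. The 10 members without an ISRE core in this window were RIGI, STAT2, IRF1, IRF9, HERC6, OAS1, CMPK2, SAMD9L, IFI35 and XAF1, and IRF7, USP18, IFIT2, OAS2, OASL, MX2 and IFITM2 had no entry. The members lie on 16 chromosomes, and 21 of them have another member as the nearest protein-coding gene on 1 side, such as the IFIT genes of chromosome 10 and OAS1, OAS3 and OAS2 in a row on chromosome 12. Matches to these letters are a description of the sequence and were not tied to binding.

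The libraries held between 7992534 and 11256578 counts, and replicates of a condition differed by more than sampling noise. Levels are given in CPM, the usual depth-scaled count, here with TMM-scaled library sizes, for which 3 counts correspond to between 0.268 and 0.373 CPM. Nothing in the labels says that the 3 libraries of a condition came from separate cultures, so the p-values measure the spread between these libraries, which may be technical, and in bulk RNA fewer cells with a transcript and less of it per cell cannot be told apart. The osteosarcoma label was checked against mesenchymal and osteoblast genes, of which VIM, COL1A1 and SPARC were abundant, with summed levels of the 8 genes between 4793 and 5043 CPM in non-OSCs and between 7608 and 8108 CPM in OSCs, while IBSP was at 0 and SP7 at no more than 3 counts in every library. Tests are the quasi-likelihood test of edgeR, p-values are adjusted over all genes tested by the Benjamini-Hochberg method, and a gene was called at an adjusted p under 0.05.

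In OSCs, as against non-OSCs, the list moved in both directions. OASL, IFITM1, IRF7, IFIT2, ISG20 and IFIT3 were the members that rose most, to between 2.64 and 6.96 times the non-OSC level by group means, while SAMD9, SAMD9L, IFITM2, OAS3 and IFITM3 fell. Of the 34 members tested, 17 were higher in OSCs, 7 were lower and 10 were not called. Among all 14288 genes tested, 32.4% were higher and 31.5% were lower, so the share of members called lower, 20.6%, was below that of all genes and the share called higher, 50.0%, was above it. The median log2 fold change of the 34 was 0.50, against -0.01 for all genes. The list was chosen with earlier results of these data known, so these shares and this median describe it and are not a test of it. In total the members' RNA did not rise, since their summed level was between 663 and 672 CPM in non-OSCs and between 654 and 669 CPM in OSCs. IFITM3, EIF2AK2 and IFITM2, which were all lower in OSCs, made up 47.7% of that sum in non-OSCs and 38.9% in OSCs.

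**Figure D1:**
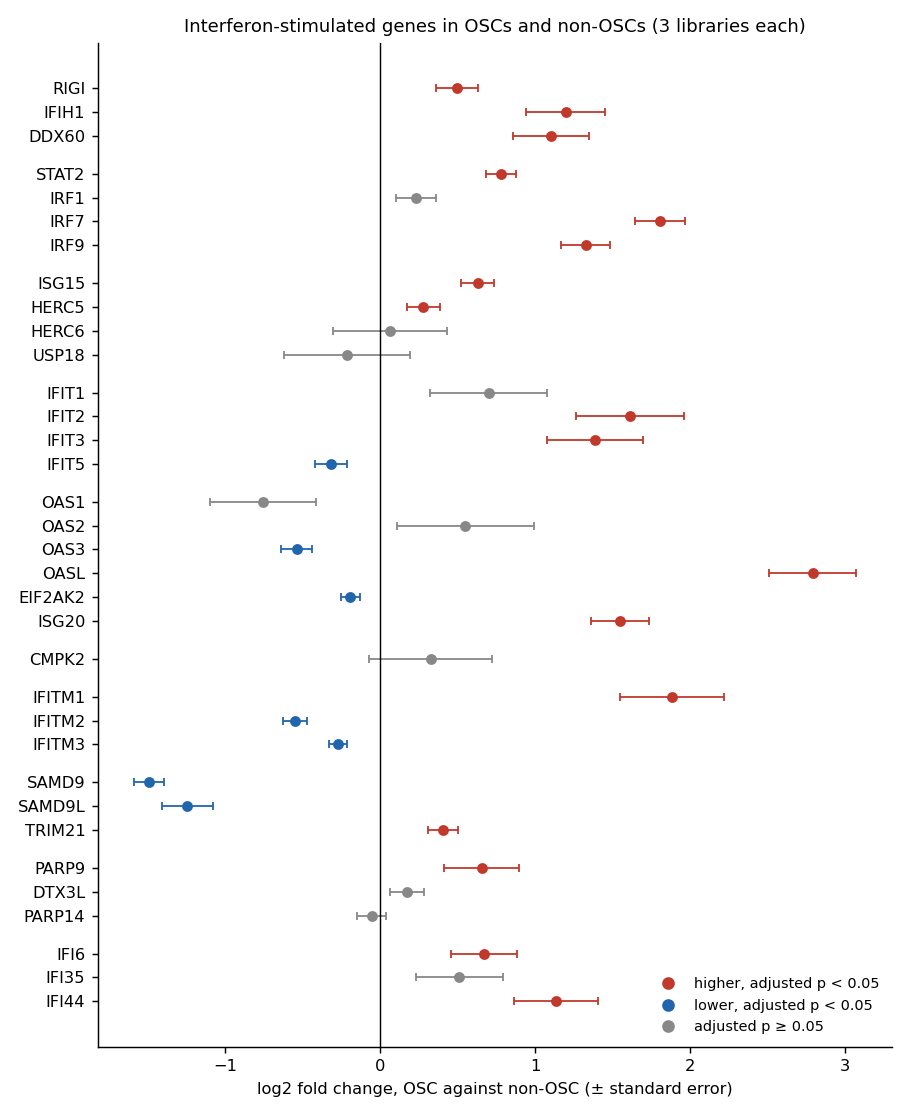
Log2 fold change of each of the 34 tested interferon-stimulated genes in OSCs against non-OSCs (3 libraries each), grouped by role, with bars for the standard error, red for higher and blue for lower at an adjusted p under 0.05 and grey otherwise. The points run from SAMD9 at -1.49 to OASL at 2.79, with 17 red and 7 blue.

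RIGI, IFIH1 and DDX60, the helicases of the list that bind RNA, rose. The libraries of RIGI (chr9:32455302-32526208), which encodes the RIG-I helicase, were at 14.6, 13.8 and 11.0 CPM in non-OSCs and at 20.4, 18.6 and 16.7 CPM in OSCs. The groups did not overlap, and the log2 fold change was 0.50 (SE 0.134, adjusted p = 0.00279). IFIH1, the gene of MDA5, a sensor of long double-stranded RNA, rose by a log2 fold change of 1.20 (SE 0.254). DDX60, a helicase of the same superfamily, rose by 1.10 (SE 0.244). RIGI shares 41.6% of its exon sequence, read in stretches of 75 bases, with other annotated genes, mostly an overlapping gene on the same strand. With that gene's counts added the log2 fold change of RIGI was 0.53.

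Of the transcription factors, IRF7, STAT2 and IRF9 rose, and IRF1 was not called. IRF7, which drives the transcription of interferon genes once it is phosphorylated, was at 5.21, 5.36 and 6.39 CPM in non-OSCs and at 20.3, 22.4 and 16.3 CPM in OSCs. All OSC libraries stood far above all non-OSC libraries, and the log2 fold change was 1.80 (SE 0.160, adjusted p = 2.17e-09). STAT2 rose by 0.78 (SE 0.0968), from a mean of 23.5 to 40.4 CPM. IRF9, the DNA-binding subunit of ISGF3, was at 6.65, 9.74 and 12.3 CPM in non-OSCs and at 22.8, 22.9 and 25.9 CPM in OSCs, a log2 fold change of 1.32 (SE 0.159, adjusted p = 2.33e-07). The size of that rise depended on how reads were divided, because 18.9% of the sequence of IRF9 is shared with other annotated genes. With the counts of an overlapping gene on the same strand added, the log2 fold change was 0.66 (SE 0.132, adjusted p = 0.000169). The libraries of IRF9 were chosen for printing after their values were seen.

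In the ISG15 system, the modifier and its ligase rose. ISG15, a ubiquitin-like protein that is attached to other proteins, was at 17.5, 17.8 and 16.0 CPM in non-OSCs and at 25.3, 25.3 and 28.9 CPM in OSCs. Its log2 fold change was 0.63 (SE 0.108, adjusted p = 2.92e-05). HERC5, the main human ligase for ISG15, was at 23.8, 20.5 and 20.7 CPM and at 25.4, 25.0 and 28.8 CPM. The groups did not overlap, but the log2 fold change was small, 0.28 (SE 0.106, adjusted p = 0.0259), and it was not called without non-OSC replicate 2, non-OSC replicate 3 or OSC replicate 3, where the adjusted p was between 0.0844 and 0.113. USP18, the protease that removes ISG15 and also restrains the interferon receptor, was at a mean of 1.89 CPM in non-OSCs and 1.65 CPM in OSCs and was not called, and HERC6, a relative of HERC5, was not called either.

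The IFIT genes encode proteins that bind foreign RNA and block its translation, and the 4 did not move together. IFIT2 was at 0.964, 1.53 and 1.54 CPM in non-OSCs and at 2.59, 5.16 and 4.47 CPM in OSCs. IFIT3 was at 2.03, 1.20 and 1.65 CPM and at 3.45, 4.25 and 5.19 CPM. Neither gene's groups overlapped, and the log2 fold changes were 1.61 (SE 0.349, adjusted p = 0.000388) for IFIT2 and 1.38 (SE 0.311, adjusted p = 0.000558) for IFIT3. IFIT1 was at 1.45, 1.20 and 1.76 CPM and at 3.20, 2.53 and 1.45 CPM, where 1 OSC library lay among the non-OSC libraries, and its log2 fold change of 0.70 was not called (adjusted p = 0.111). Without that library, OSC replicate 3, it was 0.96 with an adjusted p of 0.0484. IFIT5, the most abundant of the 4 in both groups by CPM per kb, fell by 0.32 on the log2 scale (SE 0.105).

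The OAS enzymes make oligoadenylates that activate the ribonuclease RNase L, while OASL has no such activity and is known to assist RIG-I. OASL (chr12:121017763-121039246) was at 0.868, 1.20 and 1.21 CPM in non-OSCs and at 8.25, 6.27 and 8.34 CPM in OSCs. This was the largest change of the list, 2.79 (SE 0.282, adjusted p = 1.80e-08). Its OSC libraries were all over 6 CPM, while its non-OSC libraries were not all over the level of the filter on low counts. OAS3 moved the other way, with 34.6, 37.2 and 39.3 CPM in non-OSCs and 22.7, 28.6 and 24.8 CPM in OSCs. The groups of OAS3 did not overlap, and the log2 fold change was -0.54 (SE 0.100, adjusted p = 7.31e-05). OAS1 was at 2.89, 2.85 and 2.20 CPM and at 1.85, 1.32 and 1.57 CPM, with no overlap but an adjusted p of 0.0585. OAS2 was at 0.964, 0.876 and 0.882 CPM and at 1.11, 1.11 and 1.81 CPM, close to what a few counts allow, and was not called. ISG20, an exonuclease that degrades RNA, was at 3.47, 3.61 and 3.42 CPM and at 9.73, 10.8 and 10.1 CPM, a log2 fold change of 1.55 (SE 0.188, adjusted p = 2.79e-07). EIF2AK2, the gene of the kinase PKR, which stops translation when it binds double-stranded RNA, fell by 0.19 (SE 0.0624).

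The IFITM proteins sit in membranes and block the entry of viruses, and here the rarest of them rose while the abundant ones fell. IFITM1 was at 2.03, 0.766 and 1.21 CPM in non-OSCs and at 4.19, 4.65 and 6.28 CPM in OSCs, a log2 fold change of 1.88 (SE 0.334, adjusted p = 4.37e-05). IFITM3 was at 138, 152 and 153 CPM and at 118, 121 and 127 CPM, a log2 fold change of -0.27 (SE 0.0577, adjusted p = 0.000291). IFITM2 went from a mean of 71.2 to 48.4 CPM (log2 fold change -0.55, SE 0.0785). The 3 genes share between 14.3% and 26.7% of their exon sequence in stretches of 75 bases with each other or with other genes, so the division of reads between them is uncertain.

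The neighbours SAMD9 and SAMD9L on chromosome 7, growth-restraining antiviral genes, fell most. SAMD9 was at 57.2, 53.9 and 57.4 CPM in non-OSCs and at 23.3, 18.4 and 18.5 CPM in OSCs (log2 fold change -1.49, SE 0.0969, adjusted p = 1.33e-11), values that were chosen for printing after they were seen. SAMD9L went from a mean of 15.1 to 6.33 CPM, a log2 fold change of -1.24 (SE 0.166). TRIM21, a cytosolic antibody receptor and ubiquitin ligase, rose by 0.41 (SE 0.0978). PARP9 rose by 0.65 (SE 0.244), whereas DTX3L, its partner in a complex that ADP-ribosylates and ubiquitinates proteins, and PARP14 were not called. IFI44 was at 1.83, 2.52 and 2.20 CPM and at 5.17, 4.96 and 4.23 CPM, a log2 fold change of 1.13 (SE 0.270, adjusted p = 0.000948). IFI6, which encodes a protein of the endoplasmic reticulum, was at 3.57, 4.71 and 5.07 CPM and at 8.25, 6.68 and 6.28 CPM, a log2 fold change of 0.67 (SE 0.214, adjusted p = 0.00936).

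Of the 34 members, 28 were over the filter level in every library of both groups, and 14 of these were higher and 7 lower in OSCs. The other 6, USP18, IFIT2, OAS2, OASL, CMPK2 and IFITM1, were over it in every OSC library but not in every non-OSC library. Of these, 3 were higher, IFIT2, OASL and IFITM1, and they met the filter through their OSC libraries, the group where they were high. The OSC and non-OSC libraries were apart for 19 members that were higher and 8 that were lower, against 33.8% and 33.0% of all genes tested. The call of IFIT5 was lost without non-OSC replicate 1 (adjusted p = 0.0578), that of PARP9 without non-OSC replicate 1 or 3 or OSC replicate 3 (adjusted p between 0.0620 and 0.146) and that of IFI6 without non-OSC replicate 1 or OSC replicate 1 (adjusted p = 0.0526 and 0.0536), and DESeq2 did not call HERC5 (adjusted p = 0.0694) or PARP9 (0.0537). The calls of 20 of the 24 held in every alternative tried. Epithelial keratins moved with the comparison, since the summed level of the 4 epithelial markers was between 1098 and 1227 CPM in non-OSCs and between 292 and 302 CPM in OSCs, with CDH1 at no more than 3 counts, and their part in the result was not tested. The 7 leukocyte and plasmacytoid dendritic cell markers summed to between 60.7 and 69.0 CPM in non-OSCs and between 55.6 and 57.6 CPM in OSCs. Nearly all of it was CD68, with NKG7 and CLEC4C at 0 and PTPRC and CD3D at no more than 3 counts in every library.

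Set against transcript length, IFITM3 was the member with the highest level in every condition. Per kb of the canonical transcript it was at 242 ± 13.4 CPM in non-OSCs and 200 ± 7.44 CPM in OSCs (SD, n = 3). IFITM2 and ISG15 came next in each. In non-OSCs they stood apart, at 70.7 ± 4.23 and 26.8 ± 1.54 CPM per kb, while in OSCs the libraries of IFITM2 (48.1 ± 4.12) and ISG15 (41.6 ± 3.26) overlapped. TRIM21 and EIF2AK2 followed in non-OSCs, with overlapping libraries, and IRF9 and TRIM21 in OSCs, with overlapping libraries. At the other end, 16 of the 41 members in non-OSCs and 14 in OSCs were under 1 CPM per kb. In the hairpin table, which was normalized separately, IFITM3, IFITM2, ISG15 and TRIM21 stood in that order in all 3 conditions, with libraries apart at each step.

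In the hairpin experiment PDK1 was measured first. PDK1 was at 46.7, 44.7 and 44.4 CPM with shCtrl, at 29.0, 27.8 and 27.3 CPM with shPDK1#1 and at 18.3, 21.5 and 19.6 CPM with shPDK1#2. The 3 conditions did not overlap, and the log2 fold change of PDK1 was -0.69 (SE 0.0829, adjusted p = 7.04e-06) with shPDK1#1 and -1.19 (SE 0.0863, adjusted p = 5.68e-11) with shPDK1#2. In the other table PDK1 was higher in OSCs than in non-OSCs by 0.59 (SE 0.0787). Both hairpins were compared with the same 3 shCtrl libraries, so their comparisons are not independent.

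With shPDK1#1, 0 of the 34 members tested were called in either direction by edgeR's quasi-likelihood test, and 4 had an unadjusted p under 0.05. DESeq2 also called 0, of the 18 members for which it gave an adjusted p. Among all 14597 genes tested, 1.62% were higher and 1.44% were lower with shPDK1#1. The median log2 fold change of the members was 0.01, against 0.00 for all genes, and the range was from -0.74 to 0.27. The libraries were apart for 2 members that were higher and 2 that were lower, against 9.77% and 9.53% of all genes. The lowest was IFIT3, at 5.37, 4.32 and 3.98 CPM with shCtrl and at 2.11, 1.47 and 4.38 CPM with shPDK1#1. A single shPDK1#1 library lay within the range of shCtrl and the other two far below it, and the log2 fold change was -0.74 (SE 0.317, adjusted p = 0.256). Without that library, shPDK1#1 replicate 3, it was -1.36 with an adjusted p of 0.0427, and 1 member was then called lower. IFITM3, the member with the smallest unadjusted p here, was at 124, 122 and 128 CPM and at 135, 156 and 138 CPM, with no overlap, and had a log2 fold change of 0.20 (SE 0.0608, adjusted p = 0.0722). Without shPDK1#2 replicate 2, which enters the shared estimate of the spread, its adjusted p was 0.0444. Summed over the members, the level was between 648 and 653 CPM with shCtrl and between 672 and 680 CPM with shPDK1#1. With shPDK1#2 the sum was between 627 and 644 CPM, and these sums were not tested. IFITM3, IFITM2 and EIF2AK2 made up 41.5% of the sum with shCtrl, 43.3% with shPDK1#1 and 45.7% with shPDK1#2.

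IFIT1, OAS1, OAS2 and IFI6 had the next largest changes with shPDK1#1. IFI6 was at 7.67, 4.52 and 4.60 CPM with shCtrl and at 5.22, 4.40 and 4.29 CPM with shPDK1#1, and its log2 fold change of -0.28 (SE 0.233) came with overlapping groups. IFIT1 was at 3.40, 2.31 and 2.36 CPM and at 2.24, 1.57 and 1.61 CPM, a log2 fold change of -0.59 (SE 0.355) that was not called although the groups did not overlap. OAS1 was at 1.53, 1.81 and 1.24 CPM and at 0.871, 1.05 and 1.61 CPM, and OAS2 was at 0.987, 1.91 and 1.62 CPM and at 1.12, 1.36 and 1.07 CPM. The groups overlapped for both, and a change of -0.36 (SE 0.408) for OAS1 and of -0.35 (SE 0.426) for OAS2 was not detectable at this depth.

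With shPDK1#2, the hairpin that left less PDK1, members of several roles fell. OASL, IFIT2, IFIT1, IFIT3 and IFI44 were at between 30.2% and 64.0% of shCtrl by group means, and RIGI, ISG15, HERC5 and OAS3 at between 76.4% and 83.6%. IFITM3 rose. In all, 9 of the 34 members were lower and 1 was higher, where 14.2% of the 14597 genes tested were lower and 11.9% were higher, and 12 members had an unadjusted p under 0.05. The median log2 fold change of the members was -0.16, against 0.01 for all genes. Here too the list was chosen with earlier results known, so the shares and the median describe it and are not a test of it. The libraries were apart for 11 members that were lower and 4 that were higher, against 20.0% and 19.5% of all genes. Of the 29 members over the filter level in every library of both groups, 7 were lower and 1 was higher. Of the other 5, HERC6, USP18, IFIT1, IFIT2 and OAS2, 2 were lower, IFIT1 and IFIT2. Both were over the filter level in every shCtrl library but not in every shPDK1#2 library.

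**Figure D2:**
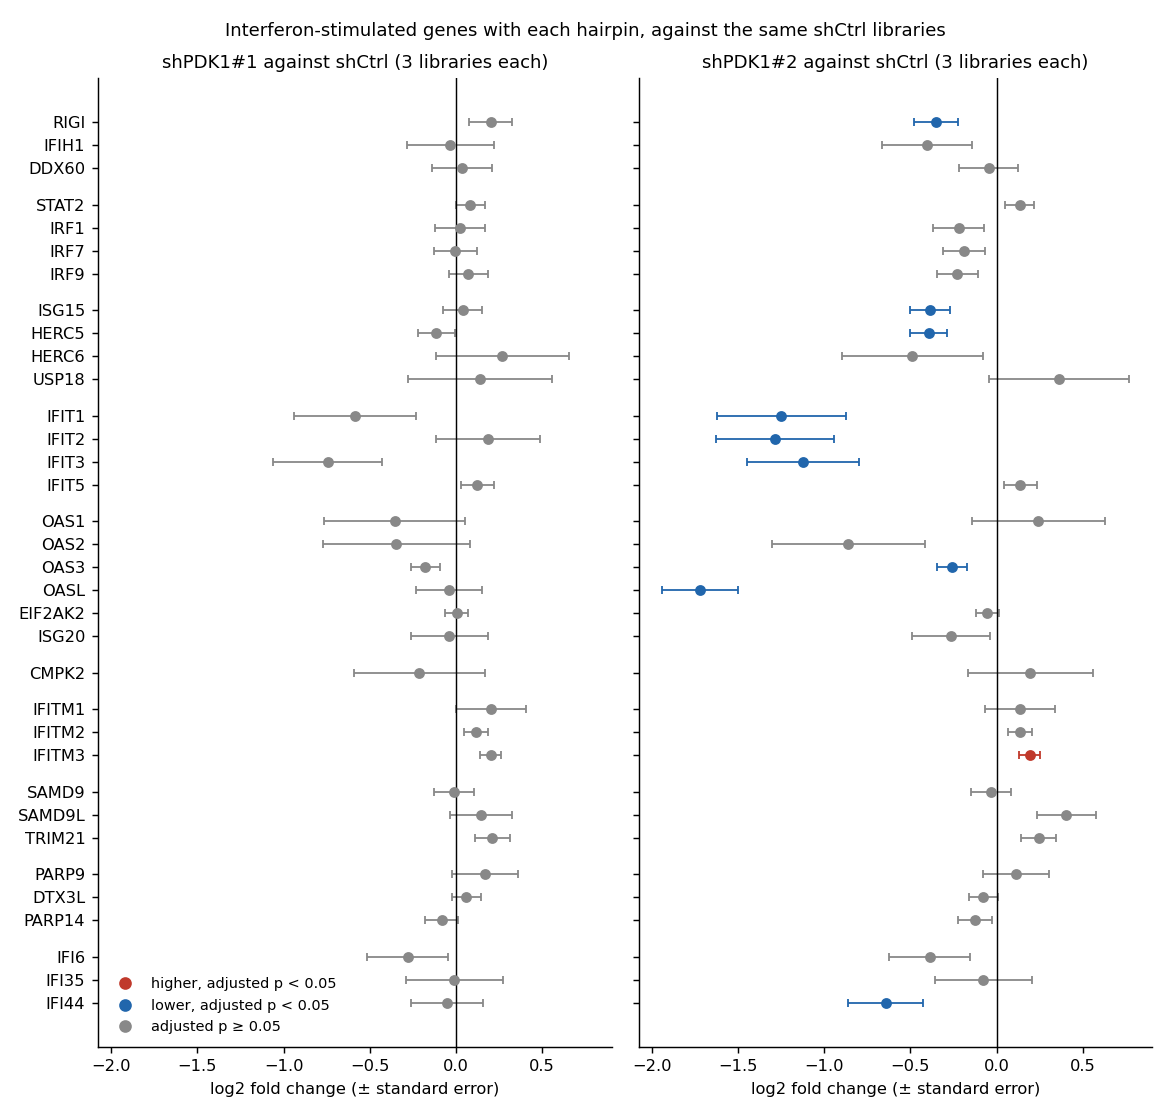
Log2 fold change of each tested interferon-stimulated gene with shPDK1#1 (left) and shPDK1#2 (right) against the same 3 shCtrl libraries, with bars for the standard error and the same order of roles in both panels. In the left panel 0 points are coloured, and in the right panel 9 are blue (lower), from OASL at -1.72 to OAS3 at -0.26, and IFITM3 at 0.19 is red (higher).

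OASL was at 6.47, 9.54 and 8.20 CPM with shCtrl and at 2.70, 2.53 and 2.08 CPM with shPDK1#2. Every shPDK1#2 library was below 3 CPM and every shCtrl library above 6 CPM, and the log2 fold change was -1.72 (SE 0.222, adjusted p = 1.21e-06). It was called in every alternative tried, as was HERC5.

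The IFIT genes of chromosome 10 fell together except for IFIT5. IFIT1 (chr10:89392546-89406487) was at 3.40, 2.31 and 2.36 CPM with shCtrl and at 1.12, 1.42 and 0.833 CPM with shPDK1#2. IFIT2 (chr10:89283694-89309271) was at 3.51, 4.42 and 2.24 CPM and at 0.931, 1.31 and 1.98 CPM. IFIT3 (chr10:89327307-89377473) was at 5.37, 4.32 and 3.98 CPM and at 1.86, 2.12 and 2.29 CPM. None of the 3 overlapped between the groups, and the log2 fold changes were -1.25 for IFIT1 (SE 0.375, adjusted p = 0.0143), -1.29 for IFIT2 (SE 0.343, adjusted p = 0.00622) and -1.12 for IFIT3 (SE 0.327, adjusted p = 0.0117). These are genes with few counts, and without 1 library the adjusted p was 0.0930 for IFIT1 (shCtrl replicate 1) or 0.0676 (shPDK1#2 replicate 3), 0.0615 for IFIT2 (shCtrl replicate 2) and 0.0646 for IFIT3 (shCtrl replicate 1). IFIT5 had a log2 fold change of 0.14 (SE 0.0958) and was not called.

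ISG15 and its ligase were both lower. ISG15 was at 19.3, 22.9 and 19.1 CPM with shCtrl and at 16.8, 14.6 and 15.6 CPM with shPDK1#2, a log2 fold change of -0.39 (SE 0.117, adjusted p = 0.0146). Without shCtrl replicate 2 it was -0.29 (adjusted p = 0.114), and without shPDK1#2 replicate 2 it was -0.34 (adjusted p = 0.0625). HERC5 was at 27.6, 26.2 and 23.9 CPM and at 18.4, 18.2 and 22.7 CPM, with no overlap, and its log2 fold change was -0.39 (SE 0.108, adjusted p = 0.00755). USP18, which counteracts both, had a log2 fold change of 0.36 with an SE of 0.407 and was not called.

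RIGI was at 13.9, 14.4 and 18.1 CPM with shCtrl and at 11.7, 11.7 and 12.7 CPM with shPDK1#2, a log2 fold change of -0.35 (SE 0.129, adjusted p = 0.0437). It was not called without shCtrl replicate 3 (log2 fold change -0.23, adjusted p = 0.252) or without any 1 of the shPDK1#2 replicates (adjusted p between 0.0577 and 0.113). With the counts of the overlapping gene added, it was -0.52 (adjusted p = 0.00139). Of the other sensors, IFIH1 (-0.40, SE 0.259) and DDX60 (-0.05, SE 0.173) were not called.

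IFI44 was at 7.35, 5.02 and 6.34 CPM with shCtrl and at 3.54, 3.94 and 4.48 CPM with shPDK1#2, a log2 fold change of -0.64 (SE 0.218, adjusted p = 0.0301). OAS3 was at 29.9, 31.0 and 29.8 CPM and at 25.2, 25.4 and 25.3 CPM, a log2 fold change of -0.26 (SE 0.0855, adjusted p = 0.0263). The shCtrl and shPDK1#2 libraries of both genes were apart. The call of OAS3 was lost without any 1 of the 6 libraries, with an adjusted p between 0.0512 and 0.0894, and that of IFI44 without shCtrl replicate 1 or 3 or shPDK1#2 replicate 1 or 2, with an adjusted p between 0.0696 and 0.154. DESeq2 did not call RIGI (adjusted p = 0.0990), IFI44 (0.0632) or OAS3 (0.0774), and edgeR without a filter on low counts did not call RIGI (0.0664) or OAS3 (0.0721). OAS2 was at 0.987, 1.91 and 1.62 CPM and at 1.02, 0.809 and 0.625 CPM, and its log2 fold change of -0.86 (SE 0.446) was not called.

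IFITM3 was the only member called higher with shPDK1#2, while 11 of the 34 had a positive log2 fold change. It was at 124, 122 and 128 CPM with shCtrl and at 139, 155 and 132 CPM with shPDK1#2, a log2 fold change of 0.19 (SE 0.0605, adjusted p = 0.0198). Without shPDK1#2 replicate 2, the highest library, it was 0.13 (adjusted p = 0.150), and without shCtrl replicate 1 or 2 the adjusted p was 0.0642 or 0.0833. IFITM2 and IFITM1, at 0.14 each, were not called. The transcription factors were not called either, with log2 fold changes of 0.13 for STAT2, -0.19 for IRF7, -0.22 for IRF1 and -0.23 for IRF9 and standard errors between 0.0850 and 0.148. With the counts of the overlapping gene added, the value of IRF9 was -0.0023 (adjusted p = 0.992).

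The count of members called with shPDK1#2 rested on single libraries. It was 5 lower without shCtrl replicate 1 and 5 without shPDK1#2 replicate 2, and between 5 and 9 over all 9 libraries left out in turn. The count called higher was 0 without shCtrl replicate 1 or 2 or shPDK1#2 replicate 2, and 2 without shCtrl replicate 3, where TRIM21 was added. Fibroblast markers moved with this hairpin, since the summed level of the 6 was between 5.52 and 6.71 CPM with shCtrl, between 9.83 and 11.8 CPM with shPDK1#1 and between 23.4 and 25.0 CPM with shPDK1#2, with POSTN, PDGFRB and LUM called higher and FAP at a log2 fold change of -0.91 (adjusted p = 0.0753), and their part in the result was not tested. The leukocyte markers summed to between 39.0 and 45.5 CPM with shCtrl, between 38.2 and 40.6 CPM with shPDK1#1 and between 22.6 and 24.6 CPM with shPDK1#2, nearly all of it CD68, with a log2 fold change of -0.83 in shPDK1#2. NKG7 and CLEC4C were at 0 in every library. The epithelial markers summed to between 330 and 354 CPM with shCtrl, between 379 and 397 CPM with shPDK1#1 and between 436 and 475 CPM with shPDK1#2, and their part was not tested.

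Of the 17 members that were higher in OSCs, 7 were lower with shPDK1#2, namely RIGI, ISG15, HERC5, IFIT2, IFIT3, OASL and IFI44, and the other 10 were not called with it. The 7 were 41.2% of the 17 and 77.8% of the 9 members lower with shPDK1#2. Over the 14055 genes tested in both tables, 1400 had this pair of calls, which was 30.6% of those higher in OSCs and 68.0% of those lower with shPDK1#2, so the overlap among the members was near that of all genes. These comparisons come from different tables and share no library. Of the 7 members that were lower in OSCs, IFITM3 was higher with shPDK1#2, OAS3 was lower again, and IFIT5, EIF2AK2, IFITM2, SAMD9 and SAMD9L were not called. IFIT1 was lower with shPDK1#2 without a call in OSCs. An ISRE core was present in 6 of the 7 members with a promoter entry that were lower with shPDK1#2. It was also present in 12 of the 20 that were not called and in 5 of the 6 too low to test. In the comparison of OSCs with non-OSCs it was present in 11 of 14 that were higher, 5 of 6 that were lower and 3 of 8 that were not called. The untested members were the same, with 5 of 6, and a link between the core and the calls was not tested.

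**Figure D3:**
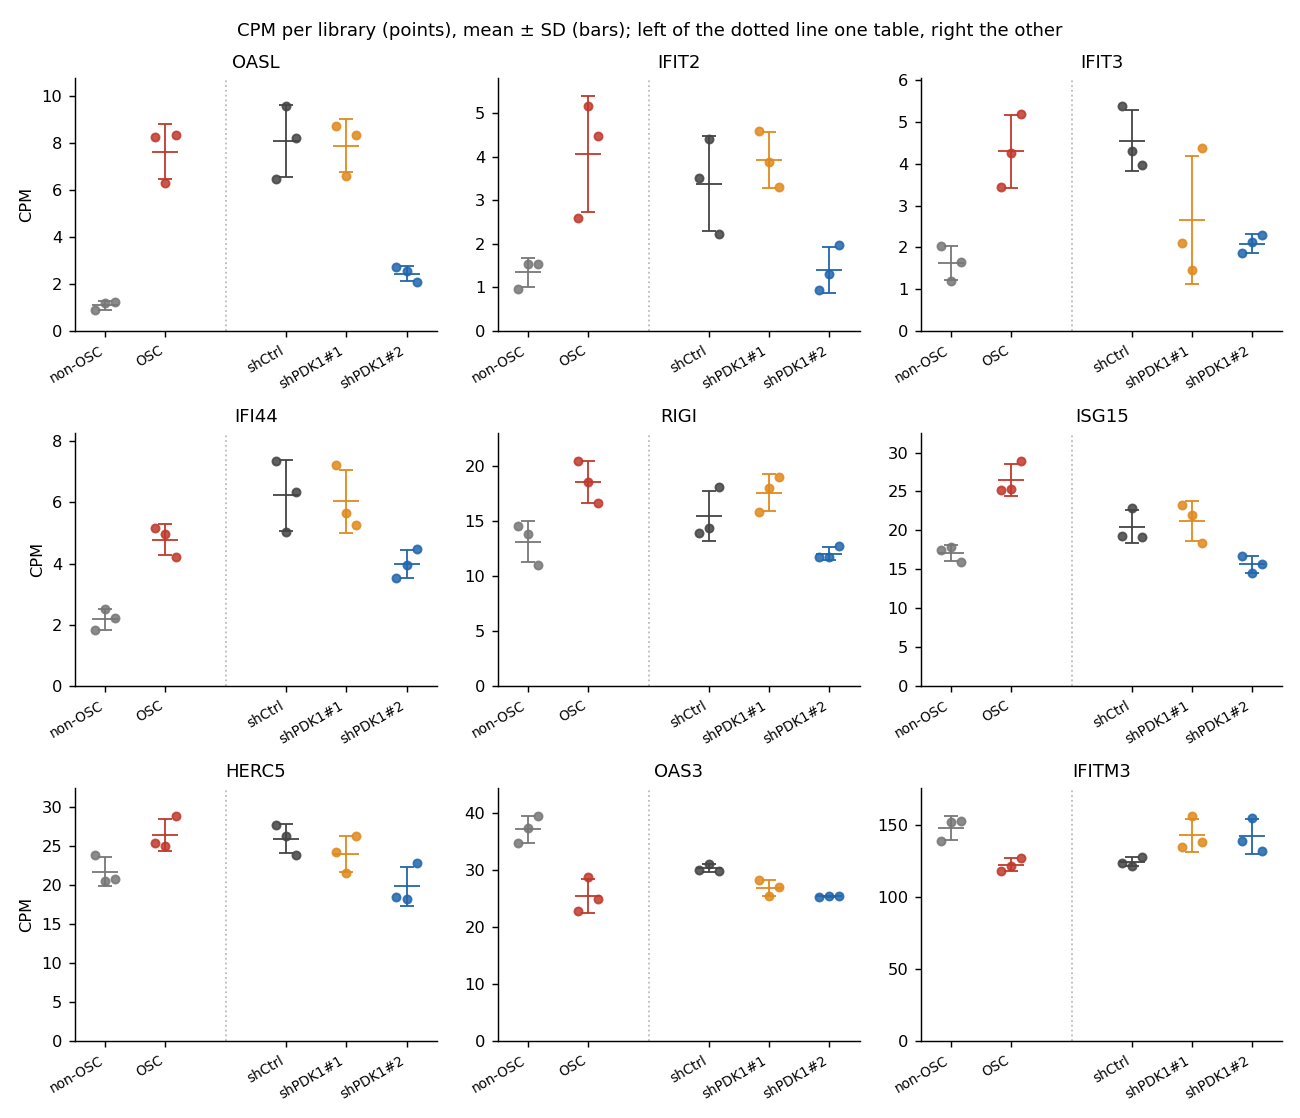
CPM in each library (points) with the mean and SD (bars) for the 9 members called both in OSCs against non-OSCs and with shPDK1#2, with non-OSC and OSC libraries left of the dotted line and the separately normalized hairpin libraries right of it. In the panels of OASL, IFIT2, IFIT3, IFI44, RIGI, ISG15 and HERC5 the OSC points lie above the non-OSC points and the shPDK1#2 points below the shCtrl points, whereas OAS3 is lower in both comparisons and IFITM3 is lower in OSCs and higher with shPDK1#2.

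The hairpins were then compared with each other, which uses the shCtrl libraries only for the shared estimate of the spread. In shPDK1#2 against shPDK1#1, 4 of the 34 members were lower and 0 were higher by edgeR's quasi-likelihood test, where 9.78% of all genes tested were lower and 6.47% were higher. DESeq2 gave the same counts among the 28 members for which it had an adjusted p, and 7 members had an unadjusted p under 0.05 with edgeR. The median log2 fold change was -0.09, against 0.00 for all genes. OASL was at 8.71, 6.60 and 8.31 CPM with shPDK1#1 and at 2.70, 2.53 and 2.08 CPM with shPDK1#2, a log2 fold change of -1.68 (SE 0.221, adjusted p = 3.79e-06). IFIT2 was at 4.60, 3.87 and 3.31 CPM and at 0.931, 1.31 and 1.98 CPM, a log2 fold change of -1.47 (SE 0.337, adjusted p = 0.00283). RIGI was at 15.8, 18.0 and 19.0 CPM and at 11.7, 11.7 and 12.7 CPM, a log2 fold change of -0.55 (SE 0.125, adjusted p = 0.00252). ISG15 was at 23.3, 22.0 and 18.3 CPM and at 16.8, 14.6 and 15.6 CPM, a log2 fold change of -0.43 (SE 0.116, adjusted p = 0.0113). The libraries of the hairpins were apart for these 4, and for 8 members that were lower and 2 that were higher in all, against 16.2% and 14.5% of all genes. Of the 29 members over the filter level in every library of both hairpins, 3 were lower, and of the other 5, HERC6, IFIT1, IFIT2, OAS1 and OAS2, IFIT2 was lower. PDK1 itself was lower with shPDK1#2 than with shPDK1#1 by 0.50 on the log2 scale (SE 0.0908).

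For the remaining members the hairpins were not told apart. IFIT3 was at 2.11, 1.47 and 4.38 CPM with shPDK1#1 and at 1.86, 2.12 and 2.29 CPM with shPDK1#2, a difference of -0.38 with an SE of 0.345. IFIT1 was at 2.24, 1.57 and 1.61 CPM and at 1.12, 1.42 and 0.833 CPM, with a log2 fold change of -0.66 (SE 0.392). So the change of IFIT1 and IFIT3 with shPDK1#2 was not shown to differ from that with shPDK1#1. HERC6 was at 2.49, 2.62 and 2.50 CPM and at 1.30, 0.607 and 2.60 CPM, and OAS1 at 0.871, 1.05 and 1.61 CPM and at 1.58, 1.72 and 2.19 CPM, which gave log2 fold changes of -0.76 (SE 0.397) and 0.60 (SE 0.394) that were not called. HERC5 (-0.28, adjusted p = 0.0796), IFI44 (-0.59, adjusted p = 0.0658) and IRF9 (-0.30, adjusted p = 0.0819) came near the threshold. With the counts of the overlapping gene added, the value of IRF9 was -0.08 (adjusted p = 0.733). Without shPDK1#2 replicate 3 the count of members called lower was 7, with HERC5, HERC6 and IRF9 added, and without shPDK1#1 replicate 1 or shPDK1#2 replicate 2 it was 3, since ISG15 was lost (adjusted p 0.0617 and 0.0562).

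The genes upstream of the members were read from lists of the same pathway. Interferon transcripts were nearly absent. Of 10 interferon genes, IFNA1, IFNA2, IFNW1, IFNG, IFNL1, IFNL2 and IFNL3 were at 0 in all 15 libraries, IFNB1 and IFNK were at no more than 3 counts, and IFNE, the highest, was at no more than 11 counts in a library. None of the 10 could be tested, and at this depth an interferon transcript below the level of about 3 counts would not be seen.

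The receptors and kinases were all measured. In OSCs 6 of these 9 genes were higher and 0 lower, against 32.4% and 31.5% of all genes, with a median log2 fold change of 0.44. JAK2, the kinase of the interferon gamma receptor and of many cytokine receptors, was at 19.7, 18.3 and 18.2 CPM in non-OSCs and at 46.4, 46.6 and 41.8 CPM in OSCs, a log2 fold change of 1.26 (SE 0.0938). The receptor chains IFNLR1 (1.08), IFNGR2 (0.73), IFNGR1 (0.53) and IFNAR1 (0.28) and the kinase TYK2 (0.44) were higher too, while JAK1, IFNAR2 and IL10RB were not called. With shPDK1#1, 0 of the 9 were called by edgeR and 1 had an unadjusted p under 0.05. With shPDK1#2, JAK2 was lower by 0.57 on the log2 scale (SE 0.0750, adjusted p = 1.55e-06), as was IFNAR1 by 0.20 (adjusted p = 0.0490), so that 2 of the 9 were lower (22.2%, against 14.2% of all genes).

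Of 14 genes of nucleic acid sensing, 11 were tested. In OSCs 6 were higher (54.5%, against 32.4% of all genes) and 0 lower, among them the adaptor TICAM1 (0.63), the DNA sensor IFI16 (0.52), the kinase TBK1 (0.35) and the adaptor MAVS (0.34). With shPDK1#2, 4 of the 11 were lower (36.4%, against 14.2% of all genes), namely STING1 (-0.49), TICAM1 (-0.42), MAVS (-0.25) and IFI16 (-0.20), and 0 were higher. STING1, which relays the signal of cGAS, was at 20.6, 23.8 and 23.6 CPM with shCtrl, at 23.1, 24.8 and 20.2 CPM with shPDK1#1 and at 17.0, 14.8 and 16.6 CPM with shPDK1#2. The shPDK1#2 libraries of STING1 lay below all others. Against shPDK1#1, which shares the shPDK1#2 libraries with that comparison, MAVS, STING1, TICAM1 and IFI16 were lower by between 0.16 and 0.49 on the log2 scale. In this comparison 4 of the 11 were called lower (36.4%, against 9.78% of all genes) and 0 higher. With shPDK1#1 against shCtrl, 0 of the 11 were called by edgeR, where 1.44% of all genes were lower and 1.62% higher.

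**Figure D4:**
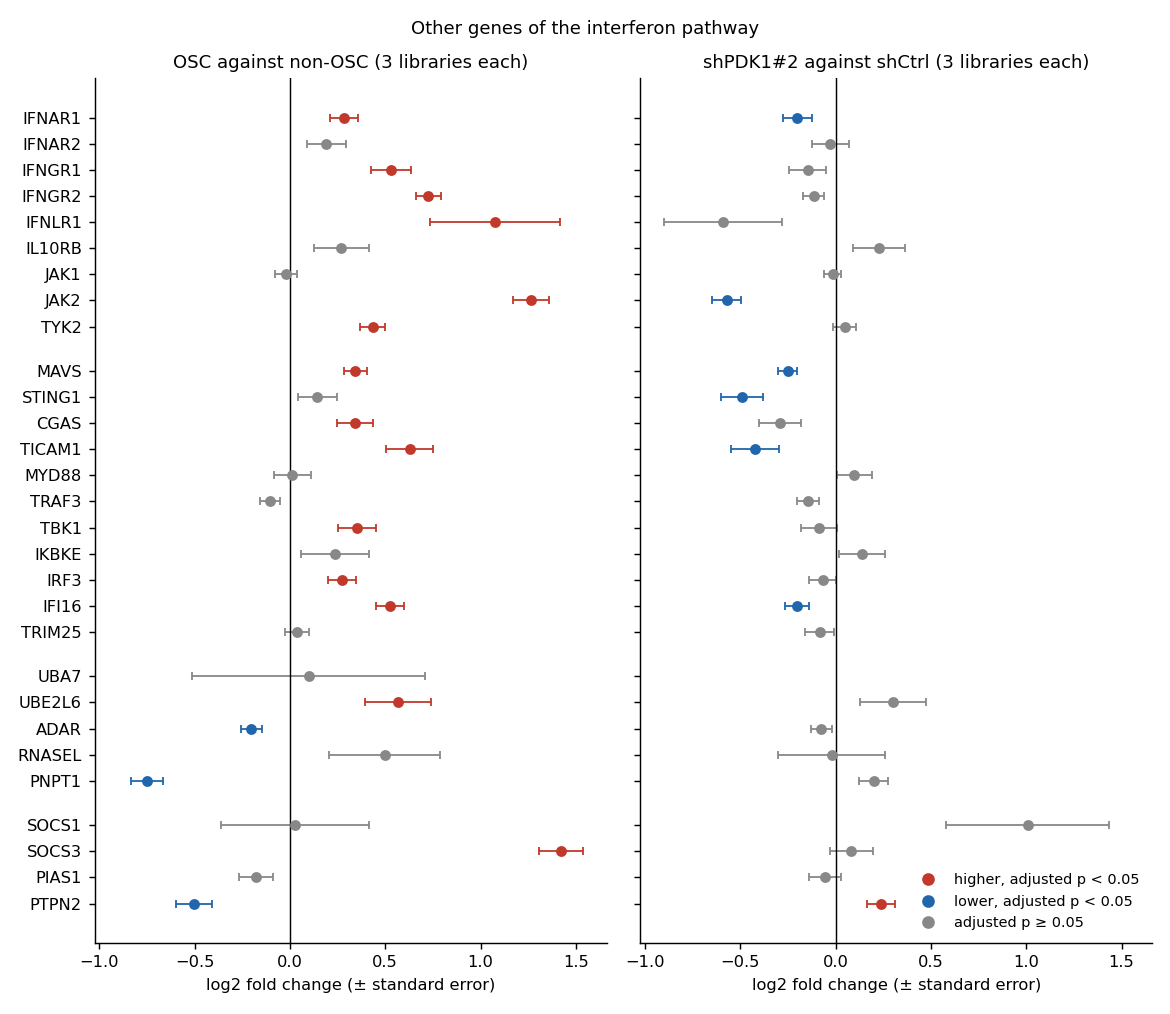
Log2 fold change of the tested genes of 4 lists (receptors and JAK kinases, nucleic acid sensing, ISG15 enzymes and RNA effectors, negative regulators) in OSCs against non-OSCs (left) and in shPDK1#2 against shCtrl (right), with bars for the standard error and red and blue for higher and lower at an adjusted p under 0.05. JAK2 lies at 1.26 in the left panel and at -0.57 in the right, and JAK1 is grey in both.

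Of the ISG15 enzymes and RNA effectors, UBE2L6, the conjugating enzyme for ISG15, was higher in OSCs (0.57), ADAR, which edits double-stranded RNA, and PNPT1, a mitochondrial exoribonuclease, were lower (-0.20 and -0.75), and 0 of the 4 tested were called with shPDK1#2 by edgeR, with 1 at an unadjusted p under 0.05. Among the negative regulators, SOCS3, which blocks JAK kinases and is also a target of other cytokines, was higher in OSCs (1.42) and PTPN2, a phosphatase of JAK and STAT proteins, was lower in OSCs (-0.50) and higher with shPDK1#2 (0.24). A further list held 34 interferon-stimulated genes beyond the 41. Of its 24 tested genes, 8 were higher (33.3%) and 6 lower (25.0%) in OSCs, against 32.4% and 31.5% of all genes, with a median log2 fold change of 0.06, close to that of all genes. HELZ2 (1.41) and TDRD7 (1.16) led the rise, and TRIM14 (-1.44) and EPSTI1 (-1.02) the fall. With shPDK1#2, 4 were lower (TDRD7 -0.80, HELZ2 -0.60, SLFN5 -0.51 and ZC3HAV1 -0.29) and 3 were higher (LGALS3BP 0.67, SLFN11 0.35 and LY6E 0.34), with a median of -0.04. These were 16.7% and 12.5% of the 24, near the 14.2% and 11.9% of all genes. TDRD7, HELZ2 and SLFN5 were thus higher in OSCs and lower with shPDK1#2. That pair of calls was common, since 30.6% of all genes higher in OSCs and 68.0% of all genes lower with shPDK1#2 had it.

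The 7 members too low to test include genes that respond strongly to interferon in most cells. Over the 15 libraries MX1, an antiviral GTPase, had between 1 and 11 counts, and its relative MX2 between 0 and 6. RSAD2, the gene of viperin, had between 0 and 11 counts and was at 0 in 5 libraries. BST2, the gene of tetherin, had between 0 and 9, IFI27 between 0 and 4, IFI44L between 0 and 5 and XAF1 between 0 and 3 counts, with XAF1 at 0 in 8 libraries. CMPK2, which lies beside RSAD2 on chromosome 2 and overlaps it on the other strand, was tested in both tables and was not called in any comparison.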

How the data were processed

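RNA-seq libraries of 143B cells (5 conditions, 3 libraries each; NEBNext Ultra RNA kit, paired-end reads, Illumina NovaSeq) were used. Per the submitters' processing notes, reads were handled with Trimmomatic 0.39, FastQC 0.12.1, STAR 2.7.11a and RSEM 1.3.3 on GRCh38.p14; the annotation and strandedness are not given in the sources used here. The authors deposited the expected count of each gene in 2 tables without normalization, where RSEM divides a read that fits several transcripts between them, so that fractions occur, in 6.85% of the values of the OSC table and 6.92% of those of the hairpin table. Values were rounded. Columns were matched to samples by name, with 0 unmapped. Gene IDs (100% matched) took symbols, coordinates and canonical transcripts from GENCODE 44.

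Each table was fitted alone with edgeR 4.0.16 (R 4.3.3; limma 3.58.1): TMM, filterByExpr by condition, quasi-likelihood test, Benjamini-Hochberg adjustment over all genes tested. The 9 hairpin libraries shared 1 fit. The scripts were first tested on simulated counts. Alternatives were DESeq2 1.42.0 with its size factors, library size alone, a replicate block, no filter, a minimum of 10 counts per library, fits of the compared groups alone, each library left out and, added after the data were seen, counts of genes sharing sequence summed with the member. Promoters were RefSeq's. Figures used Python 3.11.15 and matplotlib 3.10.9.

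The 41 members and all gene lists were chosen with earlier results of these data known. Values in every library are given for members called in OSCs against non-OSCs and in a hairpin comparison with shCtrl, and for the 5 with the largest change in each of the 4 comparisons; other choices are named as such. Reads were not realigned. A single gene of the pathway lists is not reported here.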

Additional observations from a re-analysis of the deposited data

Results flagged for a closer look

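The effect of the hairpins on 4 interferon-stimulated genes differed by the direct test of shPDK1#2 against shPDK1#1 (edgeR's quasi-likelihood test, 3 libraries each). The log2 fold change between the hairpins was -1.68 for OASL, -1.47 for IFIT2, -0.55 for RIGI and -0.43 for ISG15. In each the 3 shPDK1#2 libraries lay below the 3 shPDK1#1 libraries, as they did for 16.2% of all genes tested. These 4 were 11.8% of the 34 members tested, near the 9.78% of all genes that were lower. The call of ISG15 was lost without shPDK1#1 replicate 1 or shPDK1#2 replicate 2 (adjusted p = 0.0617 and 0.0562 by the same test). IFIT2 was not over the level of the filter on low counts in every shPDK1#2 library, whereas the other 3 genes were over it in all libraries. PDK1, the target of both hairpins, differed in the same test by -0.50. Whether the difference in PDK1 or another difference between the hairpins goes with these genes was not tested, and with 1 hairpin of each kind the amount of PDK1 and the sequence of the hairpin cannot be told apart.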

How the results depend on the processing

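No called fold change of a member changed its direction under an alternative tried. Of the 98 fold changes not called, 34 changed sign under at least 1 alternative, none with a call, among them USP18 in OSCs (0.20 without non-OSC replicate 1), IFI6 with shPDK1#1 (0.02 without shCtrl replicate 1), IFIT3 between the hairpins (0.24 without shPDK1#1 replicate 3) and RIGI with shPDK1#1 (-0.03 with the overlapping gene added). In OSCs against non-OSCs the members called were between 15 and 17 higher and between 6 and 7 lower when 1 library was left out. With shPDK1#1 the count higher was 1 in place of 0 without a filter on low counts, with a minimum of 10 counts per library and with the replicate block (IFITM3 each time), and between 0 and 1 when 1 library was left out, as was the count lower. With shPDK1#2 between 0 and 2 were higher and between 5 and 9 lower when 1 library was left out, and 6 were lower with DESeq2. In shPDK1#2 against shPDK1#1 between 3 and 7 were lower. PDK1 kept its calls, with log2 fold changes between 0.54 and 0.67 in OSCs, between -0.71 and -0.67 with shPDK1#1 and between -1.26 and -1.14 with shPDK1#2. Over all alternatives 20 of 24 calls held in OSCs, 2 of 10 with shPDK1#2 and 3 of 4 between the hairpins. Scaling by library size alone changed no member's call and gave a split of all calls with shPDK1#1 of 46.2% higher, against 52.9%. Same-numbered libraries did not deviate together (correlations between -0.0522 and 0.0949 over 9 pairs of the hairpin table and between -0.00917 and 0.0732 over 3 of the other), so the numbers were not taken as pairs. With the replicate block 17 members were higher and 7 lower in OSCs, 1 and 0 with shPDK1#1, 1 and 9 with shPDK1#2 and 0 and 4 between the hairpins. Depth limits the members of few counts, for which the standard errors reached 0.46. The causes of these shifts were not tested.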
